A study of Mus musculus with 42 samples.

Results

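Extracellular matrix genes were examined in identified neurons of the adult mouse forebrain and in unsorted cingulate tissue. They were chosen by gene symbol alone: collagen chains, laminin chains, matrilins, fibulins, thrombospondins, ADAMTS proteases and their TIMP inhibitors, lecticans (Acan, Bcan, Ncan, Vcan), link proteins (Hapln), tenascins, the small leucine-rich proteoglycans Dcn, Lum and Bgn, and Sparc and Sparcl1. Of the 12393 genes measured, 81 had such a symbol, and all 81 are counted below. Each was represented by its brightest probe set (an Affymetrix set of probes for 1 transcript); 42 members had 1 probe set and 39 had several, 133 in all. Tnr and Hapln4 were not analysed here.

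The series holds 42 arrays in 14 groups of 3. According to the series' design text, the 3 arrays of a sorted cell type came from different animals, while nothing is said of the unsorted groups. Arrays of different groups may share animals: YFPH_Hip and YFPH_Amy carry the same 3 ages (P91, P99 and P106), G30_Cg and G30_SS both hold P57 and P59, and YFPH_Cg and YFPH_SS both hold P65. Whether they do is not stated in the sources used here, and the comparisons treat the arrays as independent. Fluorescent neurons of male mice aged P57 to P106 (postnatal days) were picked by hand from dissociated 400 micron slices, 27 to 120 cells per array, and their RNA was amplified. GIN mice (GFP under a Gad1 promoter, mixed with C57BL/6j) gave somatostatin-positive interneurons of cingulate cortex (GIN_Cg) and hippocampus (GIN_Hip). G42 mice gave parvalbumin-positive interneurons of cingulate cortex (G42_Cg) and GFP interneurons of the lateral geniculate nucleus (G42_LGN). G30 mice gave GFP interneurons of cingulate (G30_Cg) and somatosensory cortex (G30_SS) and GFP neurons of the amygdala (G30_Amy). YFPH mice gave YFP layer 5 pyramidal neurons of cingulate (YFPH_Cg) and somatosensory cortex (YFPH_SS), YFP pyramidal neurons of hippocampus (YFPH_Hip) and YFP neurons of the amygdala (YFPH_Amy). CT6_Cg holds layer 6 pyramidal neurons of C57BL/6j cingulate cortex, marked by fluorescent beads placed in the medial dorsal thalamus. GIN_Homog_Cg and G42_Homog_Cg are unsorted dissociated cells of cingulate cortex from GIN and G42 mice, with no age or sex in the labels. A few arrays pooled more than 1 animal.

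The matrix of the brain lies between cells as a mesh of hyaluronan, lecticans, link proteins and tenascins, which condenses into perineuronal nets around some neurons, above all parvalbumin interneurons. A second form, the basement membrane of type IV collagen and laminins, wraps blood vessels and the brain's surface, and fibrillar collagens belong to the meninges and vessel walls. Matricellular proteins such as SPARC and thrombospondins are secreted, largely by glia, and act on cells rather than build the scaffold, while ADAMTS proteases cut lecticans and TIMPs inhibit metalloproteinases.

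Marker genes supported most labels. Sst ran from 17043 to 18315 in GIN_Cg and Pvalb from 10698 to 11327 in G42_Cg, but Pvalb in G42_LGN reached only 783. G30_Amy went against its line: its summed pyramidal markers were 12534 to 13489, against 784 to 790.4 in G30_Cg, and all 3 interneuron markers (Gad1, Gad2, Slc32a1) were lower, so comparisons of G30_Amy with G30_Cg set cells of different marker class against each other. Unsorted arrays carried astrocyte markers summing to 24774 to 33775 and endothelial markers of 2877 to 3508, against 3033 to 9877 and 1404 to 1823 in sorted cingulate arrays. The array records name 3 scan years. YFPH_Hip and YFPH_Amy were all scanned in the first, as were 2 of 3 YFPH_Cg arrays, and 2 of 3 G30_Amy arrays in the third. They mark 2 arrays as abnormally amplified (YFPH_Hip 1 and YFPH_Amy 2) and 1, YFPH_Cg 3, as sorted by a new method.

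Promoter sequences are shown for 4 members: Col19a1 and Acan, which separated interneuron types, and the head-to-head pair Col4a1 and Col4a2. RefSeq windows (GRCm38.p6; 250 bases before to 50 after the start, 5′ to 3′ on the gene's strand) were available for 56 of 81 members, 64 windows in all. Capitals mark matches on either strand to 4 short motifs. The TATA box was searched as TATAAA. The second motif was the CCAAT box. The GC box was searched as GGGCGG. The homeodomain core was searched as TAATTA. They lie at chr1:24587388-24587687 (minus strand), chr7:79052976-79053275 (plus), chr8:11312777-11313076 (minus) and chr8:11312555-11312854 (plus).
Col19a1: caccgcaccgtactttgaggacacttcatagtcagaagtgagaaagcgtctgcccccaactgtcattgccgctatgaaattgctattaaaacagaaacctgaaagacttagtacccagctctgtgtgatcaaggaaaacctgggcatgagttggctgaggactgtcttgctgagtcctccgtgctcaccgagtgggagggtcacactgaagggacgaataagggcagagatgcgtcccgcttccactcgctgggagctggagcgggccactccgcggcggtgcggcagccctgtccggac
Acan: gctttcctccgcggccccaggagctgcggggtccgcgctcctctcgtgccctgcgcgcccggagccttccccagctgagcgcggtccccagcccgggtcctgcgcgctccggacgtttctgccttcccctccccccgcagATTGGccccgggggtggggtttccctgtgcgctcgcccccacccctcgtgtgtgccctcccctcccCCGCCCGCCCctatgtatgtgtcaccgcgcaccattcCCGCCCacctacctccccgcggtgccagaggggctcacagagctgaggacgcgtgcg
Col4a1: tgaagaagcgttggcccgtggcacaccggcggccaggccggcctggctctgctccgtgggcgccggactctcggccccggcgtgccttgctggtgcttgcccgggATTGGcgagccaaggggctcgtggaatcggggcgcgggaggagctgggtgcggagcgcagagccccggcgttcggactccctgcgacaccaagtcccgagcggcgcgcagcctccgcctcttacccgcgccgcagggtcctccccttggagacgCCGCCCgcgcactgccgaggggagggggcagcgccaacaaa
Col4a2: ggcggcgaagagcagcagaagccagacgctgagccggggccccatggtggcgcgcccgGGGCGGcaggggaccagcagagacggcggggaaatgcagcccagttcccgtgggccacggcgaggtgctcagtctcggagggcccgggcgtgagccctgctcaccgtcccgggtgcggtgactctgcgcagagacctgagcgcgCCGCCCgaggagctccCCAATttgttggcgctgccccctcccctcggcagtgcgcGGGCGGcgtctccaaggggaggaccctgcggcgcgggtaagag
The Col19a1 window held none of the 4 motifs and had 56.3% G and C, against 73.7% to 74.0% in the other windows. The Acan window held 1 CCAAT box and 3 GC boxes, of which 2 overlap. Col4a1 and Col4a2, the main chains of type IV collagen, lie on opposite strands, and their windows share 78 bases (chr8:11312777-11312854), so that 1 of the 3 GC boxes of Col4a2 is also the GC box of Col4a1. Among all 32851 windows, 37.4% held a CCAAT box, 35.7% a GC box, 13.6% a TATA box and 5.3% a homeodomain core; among the 64 windows of members the counts were 26, 39, 10 and 4. A match is only a match of letters.

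Values below are the deposited intensities per array, in replicate order, and differences are on the scale of log2(intensity + 16) with their standard error; folds on that scale understate changes of dim genes. A member is called where limma's adjusted p, over all 12393 genes, was below 0.05. Of the 81 members, 43 differed by less than 1.5-fold between their highest and lowest sorted group. In every group 19 stayed below an intensity of 203, the 25th percentile of all genes. For these counts, and for the 4-fold count below, the share over all genes was not taken. The median range over the 12 sorted groups was 0.55 for members and 0.61 for all genes. At least 2-fold ranges were found in 17 members (21.0%, against 21.4% of all genes), and at least 4-fold ranges in 7. The moderated F test over the sorted groups called 57 members, where 75.1% of all genes were called.

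**Figure D1:**
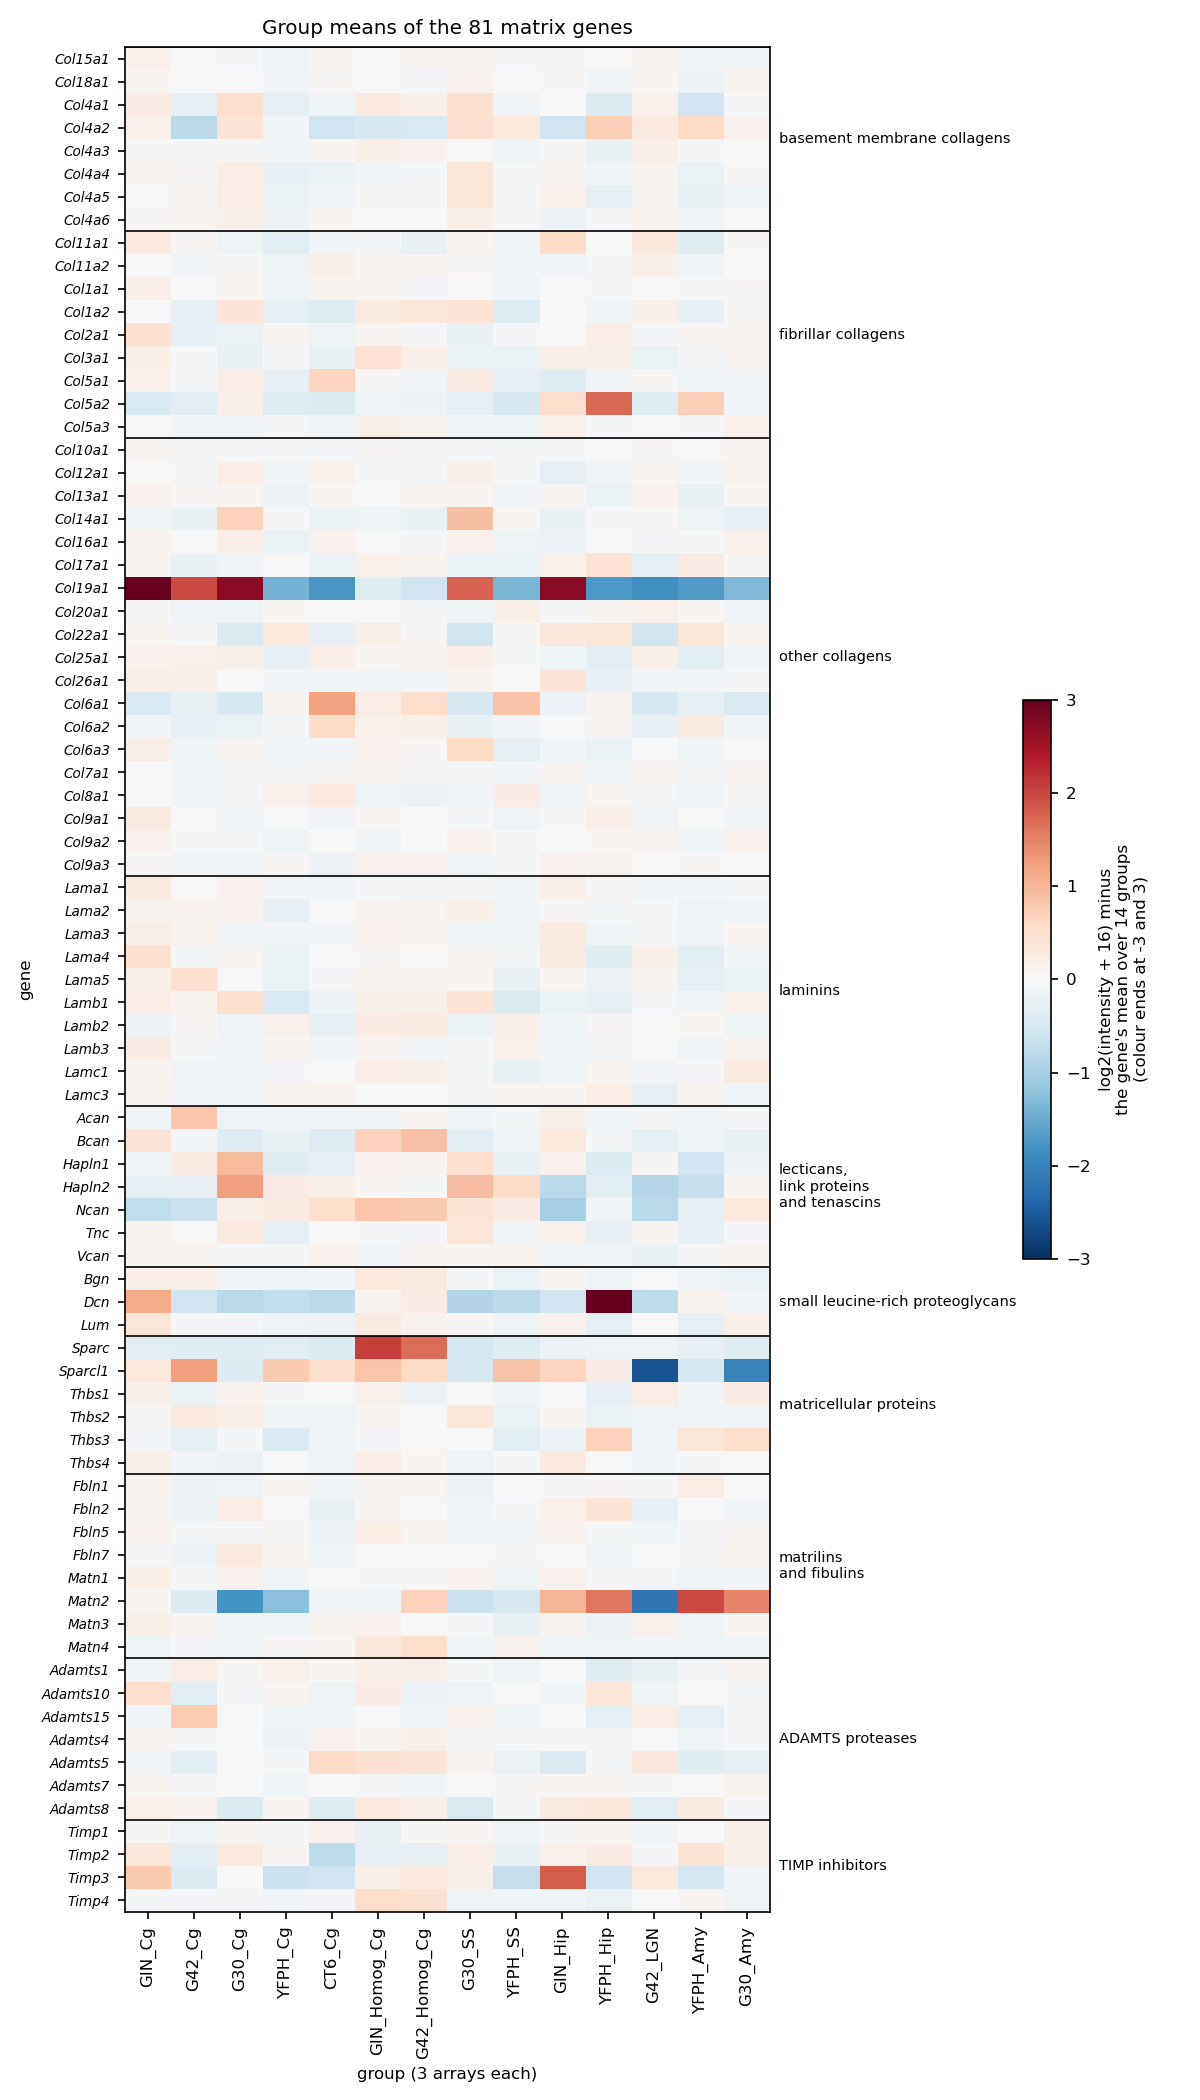
Group means of the 81 matrix genes (rows) in the 14 groups (columns, 3 arrays each), coloured by log2(intensity + 16) minus the gene's mean over the groups. Few rows carry strong colour, among them Col19a1 in the neocortical and hippocampal interneurons, Dcn in YFPH_Hip, Sparc in the unsorted groups and Sparcl1 low in G42_LGN and G30_Amy. Matn2 is high in YFPH_Hip, YFPH_Amy and G30_Amy and low in G42_LGN and G30_Cg.

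Sorted against unsorted cingulate cells asks which matrix transcripts the neurons carried and which the tissue around them carried. Sparc, the glycoprotein SPARC secreted by glia and endothelium, was 4.69-fold lower in sorted neurons. Its intensities were 1676, 1289 and 1582 in GIN_Homog_Cg and 1519.9, 897 and 1092 in G42_Homog_Cg, while the 15 sorted cingulate arrays ran from 244 to 290.0. All 36 sorted arrays, of any region, lay at 221 to 369. The difference was -2.23 ± 0.08 (limma, adjusted p = 1.23e-22).

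In all, 27 of 81 members were called, 4 higher and 23 lower in sorted cells, where 38% of all genes were called (18.2% higher, 19.8% lower); the median difference was -0.04 for members and -0.01 for all genes. The lectican Ncan (neurocan) was 1185 to 3594 in sorted cells and 3752 to 4589.8 in unsorted cells. Bcan (brevican), which glia make, was 322 to 583 against 620.1 to 1127. These lecticans did not overlap between sorted and unsorted arrays, with differences of -0.87 ± 0.09 (adjusted p = 7.24e-10) and -0.93 ± 0.10 (adjusted p = 2.47e-09). Timp4, a metalloproteinase inhibitor, and Matn4, a matrilin, also lay lower in each of the 15 sorted arrays than in each of the 6 unsorted ones (-0.56 ± 0.08 and -0.47 ± 0.06, adjusted p = 2.03e-06 and 1.84e-07). These 5 members were the only ones so separated (3.17% of all genes), and none had all sorted arrays above the unsorted ones (1.85% of all genes).

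Ncan and Sparcl1 were nonetheless bright in neurons. Sparcl1 (hevin, a SPARC relative that promotes synapses) was 982 to 3906 (median 2177) in sorted and 1956 to 3389 (median 2500.1) in unsorted cells, overlapping widely (-0.24 ± 0.12, adjusted p = 0.122). Matn2, a matrilin of filament networks, was lower in sorted cells on average (-0.98 ± 0.17, adjusted p = 1.21e-05), but GIN_Cg at 241, 163 and 295 overlapped the unsorted 142 to 617. Dcn (decorin), a small leucine-rich proteoglycan, was called lower (-0.53 ± 0.21, adjusted p = 0.0463) and also overlapped, since GIN_Cg reached 1282; leaving out any 1 of most arrays, or taking the Gapdh 3′ to 5′ signal as a covariate (-0.20), ended this call. Its relatives Bgn and Lum were lower by small amounts (-0.29 ± 0.05 and -0.21 ± 0.06).

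Of the vascular and meningeal members, the type I chain Col1a2 (-0.40 ± 0.06, adjusted p = 3.47e-07) and the type III chain Col3a1 (-0.38 ± 0.08, adjusted p = 0.000479) were lower in sorted cells on average. For Col1a2 this did not hold in every sorted group: its log2 group mean was 9.51 in G30_Cg, above the 9.39 of GIN_Homog_Cg. Col1a1 (0.02 ± 0.08, adjusted p = 0.854), Col4a1 (-0.23 ± 0.14, adjusted p = 0.207) and Col4a2 (0.29 ± 0.13, adjusted p = 0.0717) were not called. Col3a1 stayed at 55.2 to 153 on all 42 arrays and Col1a1 at 131 to 241, close to or below the 25th percentile, unsorted tissue included. By role, 1 of 8 basement membrane collagens, 3 of 9 fibrillar collagens, 2 of 10 laminins and 3 of 3 small leucine-rich proteoglycans were lower, where 19.8% of all genes were lower, and none of these was higher. Defining glial markers were low in sorted cingulate cells (Apoe 80.7 to 154, against 5818 to 10310 unsorted; Gja1 38.3 to 103, against 2764 to 4659), and 8 of 10 astrocyte, 6 of 6 oligodendrocyte, 7 of 7 microglial, 5 of 6 endothelial, 3 of 5 mural and 2 of 5 fibroblast markers were lower there. In these bulk samples fewer cells of a type and less RNA per cell cannot be told apart. The 4 pyramidal markers were lower in sorted cells too, and 3 of the 5 sorted groups are interneurons.

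Col19a1, a nonfibrillar collagen made by neurons, was the member with the largest rise in sorted cells (1.38 ± 0.12, adjusted p = 2.36e-11), although pyramidal arrays fell below the unsorted ones. Col8a1 (0.23 ± 0.09, adjusted p = 0.0314), Col14a1 (0.20 ± 0.08, adjusted p = 0.0407) and the lectican-cutting protease Adamts15 (0.13 ± 0.05, adjusted p = 0.0262) were slightly higher. Each of these 3 small calls was lost without some single array: Col8a1 without GIN_Homog_Cg 1 or 2 or G42_Homog_Cg 1 or 3 (0.21 to 0.24), Adamts15 without GIN_Homog_Cg 2 or 3 or G42_Homog_Cg 1 (0.11 to 0.12), and Col14a1 without GIN_Cg 2, G42_Cg 1, G30_Cg 2, CT6_Cg 3, YFPH_Cg 3, GIN_Homog_Cg 2 or 3 or G42_Homog_Cg 1 (0.16 to 0.20). Each of 6 scan days held 1 sorted cingulate and 1 unsorted array, all among the arrays that gave the calls. Within each of these days, 19 to 24 of the 27 called members kept their direction, and 9 did so on every day. The Gapdh 3′ to 5′ log2 signal, a sign of RNA integrity and amplification, was 1.57 to 2.44 in unsorted and 1.75 to 3.64 in sorted cingulate arrays, and its part in the result was not tested beyond the covariate fit.

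Each line also had its own unsorted control. GIN somatostatin interneurons differed from GIN_Homog_Cg in 18 members (9 higher, 9 lower; 25.2% of all genes called, 13.2% higher and 12% lower), and G42 parvalbumin interneurons from G42_Homog_Cg in 17 (5 higher, 12 lower; 27.4% of all genes called, 12.5% higher and 14.9% lower). Of the members, 9 were called in both lines, 17 in 1 and 55 in neither. The share of all genes called in both lines was not taken, so the 9 cannot be set against it. Sparc (-2.38 ± 0.13 in GIN, -2.03 ± 0.13 in G42), Ncan (-1.53 ± 0.15 and -1.43 ± 0.15), Col6a1 (-0.68 ± 0.17 and -0.75 ± 0.17), a chain of the microfibrillar type VI collagen, and Timp4, Matn4, Adamts5 and Col1a2 were lower in both. The adjusted p of Sparc was 1.77e-16 in GIN and 1.09e-14 in G42, and that of Ncan 6.21e-10 and 2.24e-09. The Col1a2 call in GIN was lost without GIN_Cg 1 or 3 or GIN_Homog_Cg 1 or 3 (-0.19 to -0.28), and the Timp4 call in G42 without G42_Homog_Cg 1 (-0.42). Col19a1 was the member higher in both.

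Col19a1 read 2315, 1804 and 2257 in GIN_Cg against 194, 193 and 186 in GIN_Homog_Cg. In G42_Cg it was 1193, 881 and 1052 against 169, 135 and 176 in G42_Homog_Cg. Sorted arrays were far above unsorted ones in both lines, by 10.3-fold (3.36 ± 0.20, adjusted p = 4.83e-15) and 6.00-fold (2.58 ± 0.20, adjusted p = 2.88e-12).

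Timp3, an inhibitor that binds to the matrix itself, was the member called in opposite directions. It was 946, 892 and 715 in GIN_Cg and 639, 429.5 and 621 in GIN_Homog_Cg, but 356, 376 and 336 in G42_Cg and 653, 459 and 728 in G42_Homog_Cg. The differences were 0.59 ± 0.15, adjusted p = 0.00355, and -0.73 ± 0.15, adjusted p = 0.000297; the first call was lost without GIN_Homog_Cg 2 (0.42). GIN_Cg was higher than its control also in Timp2 (0.57 ± 0.13, adjusted p = 0.000846), Lama4 (0.43 ± 0.09, adjusted p = 0.000373), a vascular laminin chain, Col4a2 (0.65 ± 0.22, adjusted p = 0.0261) and Dcn (1.00 ± 0.36, adjusted p = 0.0387). The Col4a2 call was lost without GIN_Cg 2 or 3 or GIN_Homog_Cg 1 or 2 (0.35 to 0.65), the Dcn call without GIN_Cg 1 or 3 or GIN_Homog_Cg 2 (0.60 to 1.08), and Col4a2, Lama4 and Col6a1 were not called with the Gapdh signal as a covariate.

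G42_Cg was higher than its control in Acan (0.73 ± 0.11, adjusted p = 1.25e-06), the aggrecan of perineuronal nets, in Adamts15 (0.84 ± 0.08, adjusted p = 8.89e-11), in Sparcl1 (0.62 ± 0.20, adjusted p = 0.0206) and in the laminin chain Lama5 (0.39 ± 0.12, adjusted p = 0.0123). It was lower in Bcan (-0.98 ± 0.17, adjusted p = 2.2e-05) and Matn2 (-1.11 ± 0.28, adjusted p = 0.00268). Matn2 in G42_Homog_Cg was 288, 617 and 245, and without array 2 the call was lost (-0.72). Sparcl1 was not called without G42_Cg 2 or G42_Homog_Cg 2 or 3 (0.49 to 0.57), nor Lama5 without G42_Cg 2 or 3 (0.28 to 0.35). The GIN calls kept their direction in 18 of 18 members on each of 3 shared scan days, and the G42 calls in 17 of 17 on each of 2. Each of these days held 1 array of each group, from the same arrays that gave the calls, so this is not an independent check.

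The lines' differences were set against each other in 1 interaction term, which called 9 members (6 with a more positive difference in GIN, 3 in G42; 7.3% of all genes called, 3.68% higher and 3.62% lower). Dcn (1.82 ± 0.51, adjusted p = 0.0208), Timp3 (1.33 ± 0.22, adjusted p = 5.47e-05) and Matn2 (1.29 ± 0.40, adjusted p = 0.0405) were more positive in GIN. Sparcl1 (-1.13 ± 0.29, adjusted p = 0.0104), Adamts15 (-0.92 ± 0.11, adjusted p = 1.88e-07) and Acan (-0.76 ± 0.15, adjusted p = 0.00079) were more positive in G42. The Matn2 term was lost without any 1 of GIN_Cg 1 or 3, the G42_Cg arrays, GIN_Homog_Cg 2 or 3 or G42_Homog_Cg 2 (0.90 to 1.34), the Dcn term without GIN_Cg 1 or GIN_Homog_Cg 2 (1.43 and 1.54), and the Sparcl1 term with the Gapdh covariate (-0.64).

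**Figure D2:**
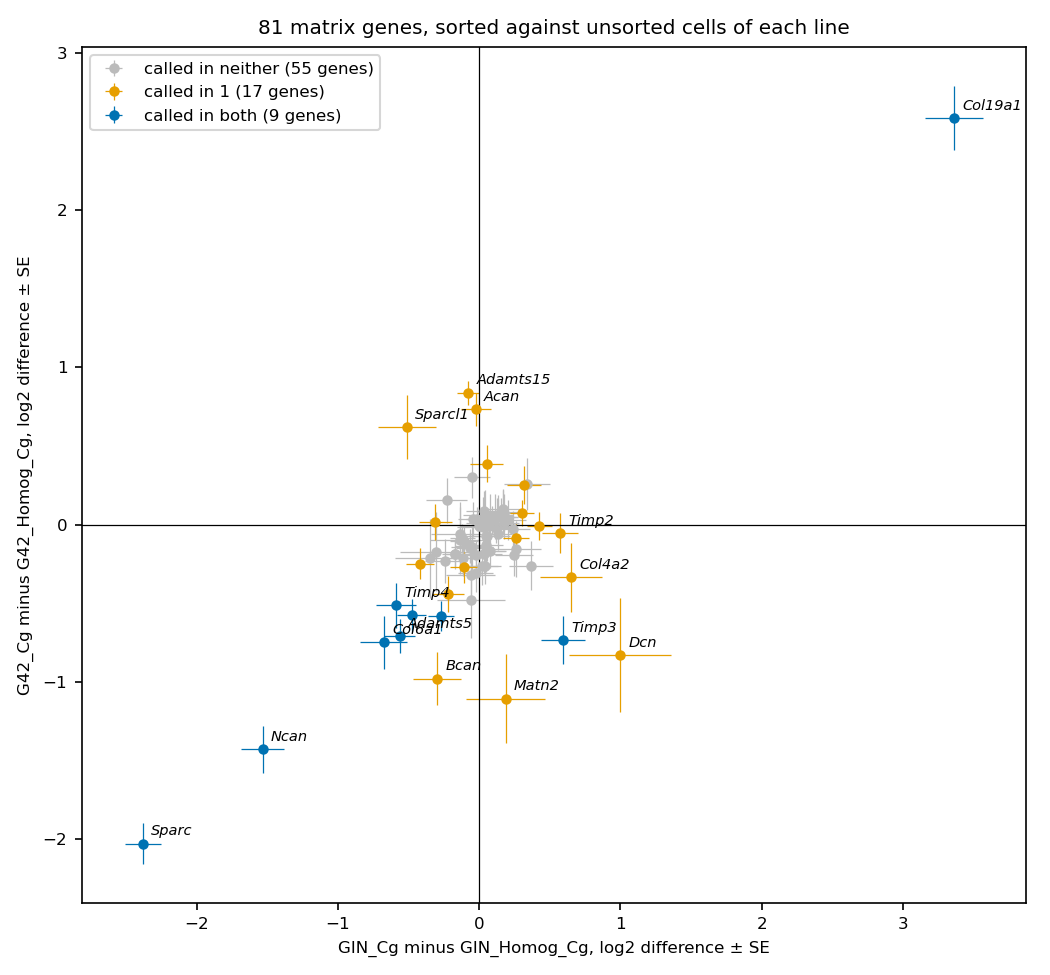
Log2 difference ± SE of sorted minus unsorted cells for the 81 matrix genes, GIN line on the horizontal and G42 line on the vertical axis, coloured by whether a gene was called in both lines (9), 1 (17) or neither (55). Sparc and Ncan lie low and Col19a1 high on both axes, while Timp3 is positive in GIN and negative in G42.

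Among sorted cingulate neurons, pyramidal cells and interneurons were compared. Col19a1 separated them completely: it was 77.9, 91.9 and 80.7 in YFPH_Cg and 69.8, 49.1 and 73.7 in CT6_Cg, but 881 to 2315 over the 9 interneuron arrays (G30_Cg: 1527, 1503 and 2129). Pyramidal cells were 17.6-fold lower (-4.14 ± 0.13, adjusted p = 2.86e-23). The unsorted tissue at 135 to 194 lay between them. These values are of the brightest Col19a1 probe set. Its other set was not called by the F test over the sorted groups (adjusted p = 0.0523).

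Col6a1 went the other way. It was 1818, 1145 and 1599 in CT6_Cg, 659, 640.0 and 725 in YFPH_Cg and 403 to 557 in the interneuron arrays, with no overlap (1.04 ± 0.11, adjusted p = 1.35e-09, 2.05-fold). Its partner chain Col6a2 was also higher in pyramidal cells (0.42 ± 0.07, adjusted p = 4.08e-05), as were Ncan (0.78 ± 0.10, adjusted p = 6.77e-08), the lectican-cutting protease Adamts5 (0.42 ± 0.07, adjusted p = 1.9e-05) and Col8a1 (0.26 ± 0.09, adjusted p = 0.0382). Ncan did not split by class in every group: its log2 group mean was 11.45 in G30_Cg and 11.51 in YFPH_Cg, against 10.51 in GIN_Cg and 10.60 in G42_Cg. The Col8a1 call was lost without any of GIN_Cg 1 or 3, G42_Cg 1 or 2, G30_Cg 2 or 3, CT6_Cg 1 or 2, or YFPH_Cg 1 or 2, and its value ran from 0.14 without CT6_Cg 1 to 0.39 without CT6_Cg 3.

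In all 26 members were called, 5 higher and 21 lower in pyramidal cells, with 25.7% of all genes called, 12.2% higher and 13.5% lower; median differences were -0.08 for members and -0.03 for all genes. Lower members included Timp3 (-0.75 ± 0.10, adjusted p = 2.11e-07), the link protein Hapln1 (-0.71 ± 0.09, adjusted p = 1.75e-07), which ties lecticans to hyaluronan, the laminin chain Lamb1 (-0.58 ± 0.10, adjusted p = 4.24e-05) and Timp2 (-0.47 ± 0.08, adjusted p = 3.33e-05). Timp2 was nonetheless higher in YFPH_Cg (log2 group mean 12.90) than in G42_Cg (12.56). Laminins were lower in 5 of 10 cases (Lama1, Lama2, Lama4, Lama5 and Lamb1) and higher in none. Apart from Col19a1, Col6a1 and Lama2, every called member overlapped between the classes. The share of all genes without overlap between the classes was not taken. Dcn (-0.66 ± 0.23, adjusted p = 0.0341) was not called without GIN_Cg 1, G42_Cg 2, G30_Cg 1, any CT6_Cg array or YFPH_Cg 1 or 2 (-0.52 to -0.67).

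Parvalbumin and somatostatin interneurons of cingulate cortex were compared next. Acan was 399, 321 and 394 in the parvalbumin interneurons of G42_Cg and 166, 209.8 and 188 in GIN_Cg, and the 33 other sorted arrays of any region stayed within 159 to 252. Adamts15 was 257, 263 and 270.5 in G42_Cg and 111 to 192 over those 33 arrays. Both genes were therefore highest in all 3 G42_Cg arrays.

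GIN_Cg minus G42_Cg called 17 members (12 higher, 5 lower; 27.2% of all genes called, 17.7% higher and 9.51% lower). Higher in G42_Cg were Acan (-0.93 ± 0.11, adjusted p = 3.48e-08), Adamts15 (-0.84 ± 0.08, adjusted p = 2.24e-10), Sparcl1 (-0.90 ± 0.20, adjusted p = 0.00126), the lectican-cutting protease Adamts1 (-0.33 ± 0.12, adjusted p = 0.0304) and Lama5 (-0.33 ± 0.12, adjusted p = 0.0357). Sparcl1 had been 3408, 3906 and 3571 in G42_Cg and 2171, 1578 and 2114 in GIN_Cg. The Gapdh 3′ to 5′ log2 signal averaged 1.98 in G42_Cg and 3.21 in GIN_Cg, and with it as a covariate Sparcl1 was not called (-0.39).

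Higher in GIN_Cg were Dcn (1.70 ± 0.36, adjusted p = 0.000617), Timp3 (1.21 ± 0.15, adjusted p = 2.48e-07), Col19a1 (1.02 ± 0.20, adjusted p = 0.000329), Col4a2 (0.96 ± 0.22, adjusted p = 0.00133), the secreted protease Adamts10 (0.84 ± 0.18, adjusted p = 0.000581) and Col2a1, the collagen of cartilage (0.74 ± 0.15, adjusted p = 0.000458). Dcn was 1282, 469 and 645 in GIN_Cg and 202, 229 and 212 in G42_Cg, so that the lowest GIN_Cg array stood above the highest G42_Cg array. The small Adamts1 and Lama5 calls were lost without any of GIN_Cg 1 or 2 or, for Adamts1, G42_Cg 1, and for Lama5, G42_Cg 2 or 3 (-0.27 to -0.32 and -0.22 to -0.36).

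G30 interneurons of cingulate cortex were high in Hapln2, Hapln1 and Col14a1. Hapln2, a link protein known from nodes of Ranvier, was 939, 1207 and 1074 in G30_Cg, 263, 246 and 722 in GIN_Cg and 364, 325 and 449.8 in G42_Cg. Col14a1, a collagen that binds fibrils, was 542, 587 and 552 in G30_Cg and 689.8, 568 and 689 in G30_SS, and 246 to 400.0 in the other 30 sorted arrays. Hapln1 was 237, 286 and 228 in G30_Cg against 101 to 186 in GIN_Cg and G42_Cg, again without overlap.

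Against the mean of GIN_Cg and G42_Cg, 17 members were called (7 higher, 10 lower; 14.2% of all genes called, 6.64% higher and 7.56% lower). Hapln2 (1.49 ± 0.22, adjusted p = 4.37e-06), Ncan (0.89 ± 0.13, adjusted p = 4.53e-06), Col14a1 (0.89 ± 0.11, adjusted p = 3.64e-07), Hapln1 (0.86 ± 0.12, adjusted p = 3.67e-06), Col4a2 (0.72 ± 0.19, adjusted p = 0.00778) and Col1a2 (0.50 ± 0.08, adjusted p = 2.35e-05) were higher. Lower were Matn2 (-1.62 ± 0.24, adjusted p = 7.03e-06), Sparcl1 (-1.20 ± 0.18, adjusted p = 5.49e-06), Dcn (-1.06 ± 0.31, adjusted p = 0.0182), Adamts8 (-0.55 ± 0.19, adjusted p = 0.0442), Bcan (-0.53 ± 0.15, adjusted p = 0.0107) and Acan (-0.49 ± 0.09, adjusted p = 0.000216). Matn2 was 39.2, 61.4 and 51.6 in G30_Cg, below every GIN_Cg and G42_Cg array. Dcn was not called without GIN_Cg 1 or G30_Cg 2 or 3 (-0.86 to -1.04), Adamts8 without any 1 array other than GIN_Cg 3 (-0.51 to -0.59), and Col4a2 and Bcan without G30_Cg 2 (0.67 and -0.51). With intensities floored at the 25th percentile, the Matn2 difference fell to -0.13 and was not called.

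Layer 6 and layer 5 pyramidal neurons of cingulate cortex differed in Col6a1, Col6a2 and Col5a1, while the other measured type VI and type V chains Col6a3 (-0.02 ± 0.14, adjusted p = 0.951), Col5a2 (-0.02 ± 0.25, adjusted p = 0.973) and Col5a3 (-0.06 ± 0.09, adjusted p = 0.737) were not called. Col6a1 was 2.19-fold higher in CT6_Cg than in YFPH_Cg (1.13 ± 0.17, adjusted p = 8.66e-06). Col5a1, a chain of fibril-starting type V collagen, was 738, 779.8 and 733 in CT6_Cg and 349, 386 and 466 in YFPH_Cg (0.89 ± 0.14, adjusted p = 3.21e-05). Its lowest CT6_Cg array stood above all 33 other sorted arrays, which ended at 583. Col6a2 was 762, 847 and 815 and 561, 505 and 525 in the same groups (0.59 ± 0.11, adjusted p = 0.000459).

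Of 10 called members (8 higher, 2 lower in CT6_Cg; 10.4% of all genes called, 5.1% higher and 5.31% lower), Matn2 (1.17 ± 0.28, adjusted p = 0.00473), Adamts5 (0.61 ± 0.11, adjusted p = 0.000169) and the neuronal transmembrane collagen Col25a1 (0.45 ± 0.14, adjusted p = 0.0341) were also higher. Timp2 (-0.79 ± 0.13, adjusted p = 3.33e-05) and the laminin chain Lamb2 (-0.41 ± 0.10, adjusted p = 0.0053) were lower. Timp2 was 5556, 4797 and 3183 in CT6_Cg and 7436, 7958 and 7517 in YFPH_Cg, without overlap. Col25a1 was not called without any of the CT6_Cg arrays or YFPH_Cg 1 or 2 (0.33 to 0.48) and fell to 0.07 with scan year as a block, and Matn2 (0.92) and Lamb2 (-0.33) were not called without the arrays marked in their records, here YFPH_Cg 3. The Gapdh 3′ to 5′ log2 signal was 2.47 to 3.07 in CT6_Cg and 2.06 to 2.17 in YFPH_Cg, without overlap. With it as a covariate 6 members were called, and Col25a1 (0.35) and Lamb2 (-0.36) were not.

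Hippocampal pyramidal neurons carried the largest difference among the members in the comparisons between groups. Dcn, which binds collagen fibrils and growth factors, was 11843, 4843 and 7167 in YFPH_Hip and 182, 199 and 200.1 in YFPH_Cg. GIN_Cg at 1282, 469 and 645, the first array of YFPH_Amy (757, 279 and 214) and the first of G30_Amy (731, 205 and 202) came next, and the other 24 sorted arrays stayed at 166 to 261. Dcn was 35.6-fold higher in YFPH_Hip than in YFPH_Cg (5.15 ± 0.36, adjusted p = 2.67e-12). Its relatives did not share the pattern: Lum (-0.13 ± 0.11, adjusted p = 0.558) and Bgn (-0.01 ± 0.09, adjusted p = 0.987) were not called.

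Matn2 and Col5a2 followed. Matn2 was 791, 948 and 427 in YFPH_Hip and 87.1, 111 and 52.2 in YFPH_Cg (2.87 ± 0.28, adjusted p = 4.27e-09, 7.29-fold). Col5a2, the second type V chain, was 601, 567 and 2244 in YFPH_Hip and 187, 197 and 217 in YFPH_Cg (2.11 ± 0.25, adjusted p = 2.34e-07); all 3 hippocampal arrays were higher, the third by far. Thbs3, a thrombospondin, was 521, 429.9 and 394 against 194, 183 and 212 (1.12 ± 0.13, adjusted p = 5.86e-08).

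In YFPH_Hip minus YFPH_Cg, 7 members were called (6 higher, 1 lower; 8.04% of all genes called, 3.72% higher and 4.33% lower). The rest were Col4a2 (0.79 ± 0.22, adjusted p = 0.018), the elastic-fibre protein gene Fbln2 (0.41 ± 0.12, adjusted p = 0.0299) and, lower, Adamts1 (-0.51 ± 0.12, adjusted p = 0.00378). These 3 were lost without single arrays: Col4a2 without YFPH_Cg 2 or YFPH_Hip 2 or 3 (0.57 to 0.77), Fbln2 without any YFPH_Cg array or YFPH_Hip 2 (0.25 to 0.44), and Adamts1 without YFPH_Cg 3 (-0.37). The YFPH_Hip mice were aged P106, P99 and P91 and the YFPH_Cg mice with a stated age P65 and P80, so age moved with region. Fibroblast markers in YFPH_Hip (summed 1573 to 1694) overlapped the range of YFPH_Cg (1453 to 1692). The Gapdh 3′ to 5′ log2 signal was 2.47 to 2.56 in YFPH_Hip, above YFPH_Cg, and with it as a covariate the same number, 7, was called (Dcn 5.39). Leaving out YFPH_Cg 3 holds scan year equal and also removes the array sorted by a new method; Dcn was then 5.17, Matn2 2.62, Col5a2 2.16 and Thbs3 1.17.

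Hippocampal somatostatin interneurons were compared with cingulate ones of the same line. Timp3 was 1867, 1659 and 1731 in GIN_Hip and 946, 892 and 715 in GIN_Cg (1.04 ± 0.15, adjusted p = 9.96e-06, 2.05-fold), and every other sorted group was lower still. Dcn ran against the pyramidal cells: 176, 261 and 213 in GIN_Hip, below every GIN_Cg array (-1.70 ± 0.36, adjusted p = 0.00126). Col5a2 was 504, 397 and 303 in GIN_Hip and 189, 209.8 and 175 in GIN_Cg (0.99 ± 0.25, adjusted p = 0.00697).

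Of 11 called members (4 higher, 7 lower; 15% of all genes called, 7.63% higher and 7.33% lower), Matn2 (0.93 ± 0.28, adjusted p = 0.0226) and Acan (0.31 ± 0.11, adjusted p = 0.0438) were also higher in hippocampus. Col4a2 (-0.77 ± 0.22, adjusted p = 0.0151), Adamts10 (-0.63 ± 0.18, adjusted p = 0.0144), Col5a1 (-0.56 ± 0.14, adjusted p = 0.00649), Col2a1 (-0.44 ± 0.15, adjusted p = 0.0496) and Lamb3 (-0.33 ± 0.12, adjusted p = 0.0499) were lower. Except for Timp3, Dcn and Col5a2, these calls depended on single arrays of the comparison: Matn2 was lost without GIN_Hip 1 or 3 or GIN_Cg 2 (0.71 to 0.86), Acan without GIN_Hip 2 or 3 or GIN_Cg 1 or 3 (0.23 to 0.31), Col4a2 without GIN_Hip 1 or GIN_Cg 3 (-0.60 and -0.47), Adamts10 without GIN_Hip 1 or 2 or GIN_Cg 2 (-0.50 to -0.54), Col5a1 without GIN_Hip 2 (-0.33), Col2a1 without any GIN_Hip array or GIN_Cg 2 or 3 (-0.35 to -0.50) and Lamb3 without GIN_Hip 3 or GIN_Cg 2 or 3 (-0.21 to -0.32). The Gapdh 3′ to 5′ log2 signal averaged 2.43 in GIN_Hip and 3.21 in GIN_Cg. With it as a covariate Matn2 (0.75), Acan (0.35), Col4a2 (-0.75), Col5a1 (-0.49), Col2a1 (-0.48) and Lamb3 (-0.24) were not called. GIN_Hip 2 held more astrocyte signal than GIN_Hip 1 and 3 (Gja1 417.5 against 82.4 and 39.3, Apoe 723 against 83.2 and 113), and without it 7 members were called, Timp3, Dcn and Col5a2 among them.

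The interaction of region and line called 11 members (8 more positive in YFPH, 3 in GIN; 16.8% of all genes called, 8.32% higher and 8.46% lower). Dcn (6.85 ± 0.51, adjusted p = 1.07e-11), Matn2 (1.94 ± 0.40, adjusted p = 0.000723) and Col4a2 (1.56 ± 0.31, adjusted p = 0.000496) were more positive in the pyramidal line, and Timp3 (-0.95 ± 0.22, adjusted p = 0.00212), Sparcl1 (-0.86 ± 0.29, adjusted p = 0.0365) and Adamts1 (-0.63 ± 0.16, adjusted p = 0.0064) in the interneuron line. The Sparcl1 term was lost without GIN_Hip 2 or 3, GIN_Cg 2, YFPH_Cg 1 or 2 or YFPH_Hip 1 or 2 (-0.71 to -0.86), and with the Gapdh covariate (-0.37).

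**Figure D3:**
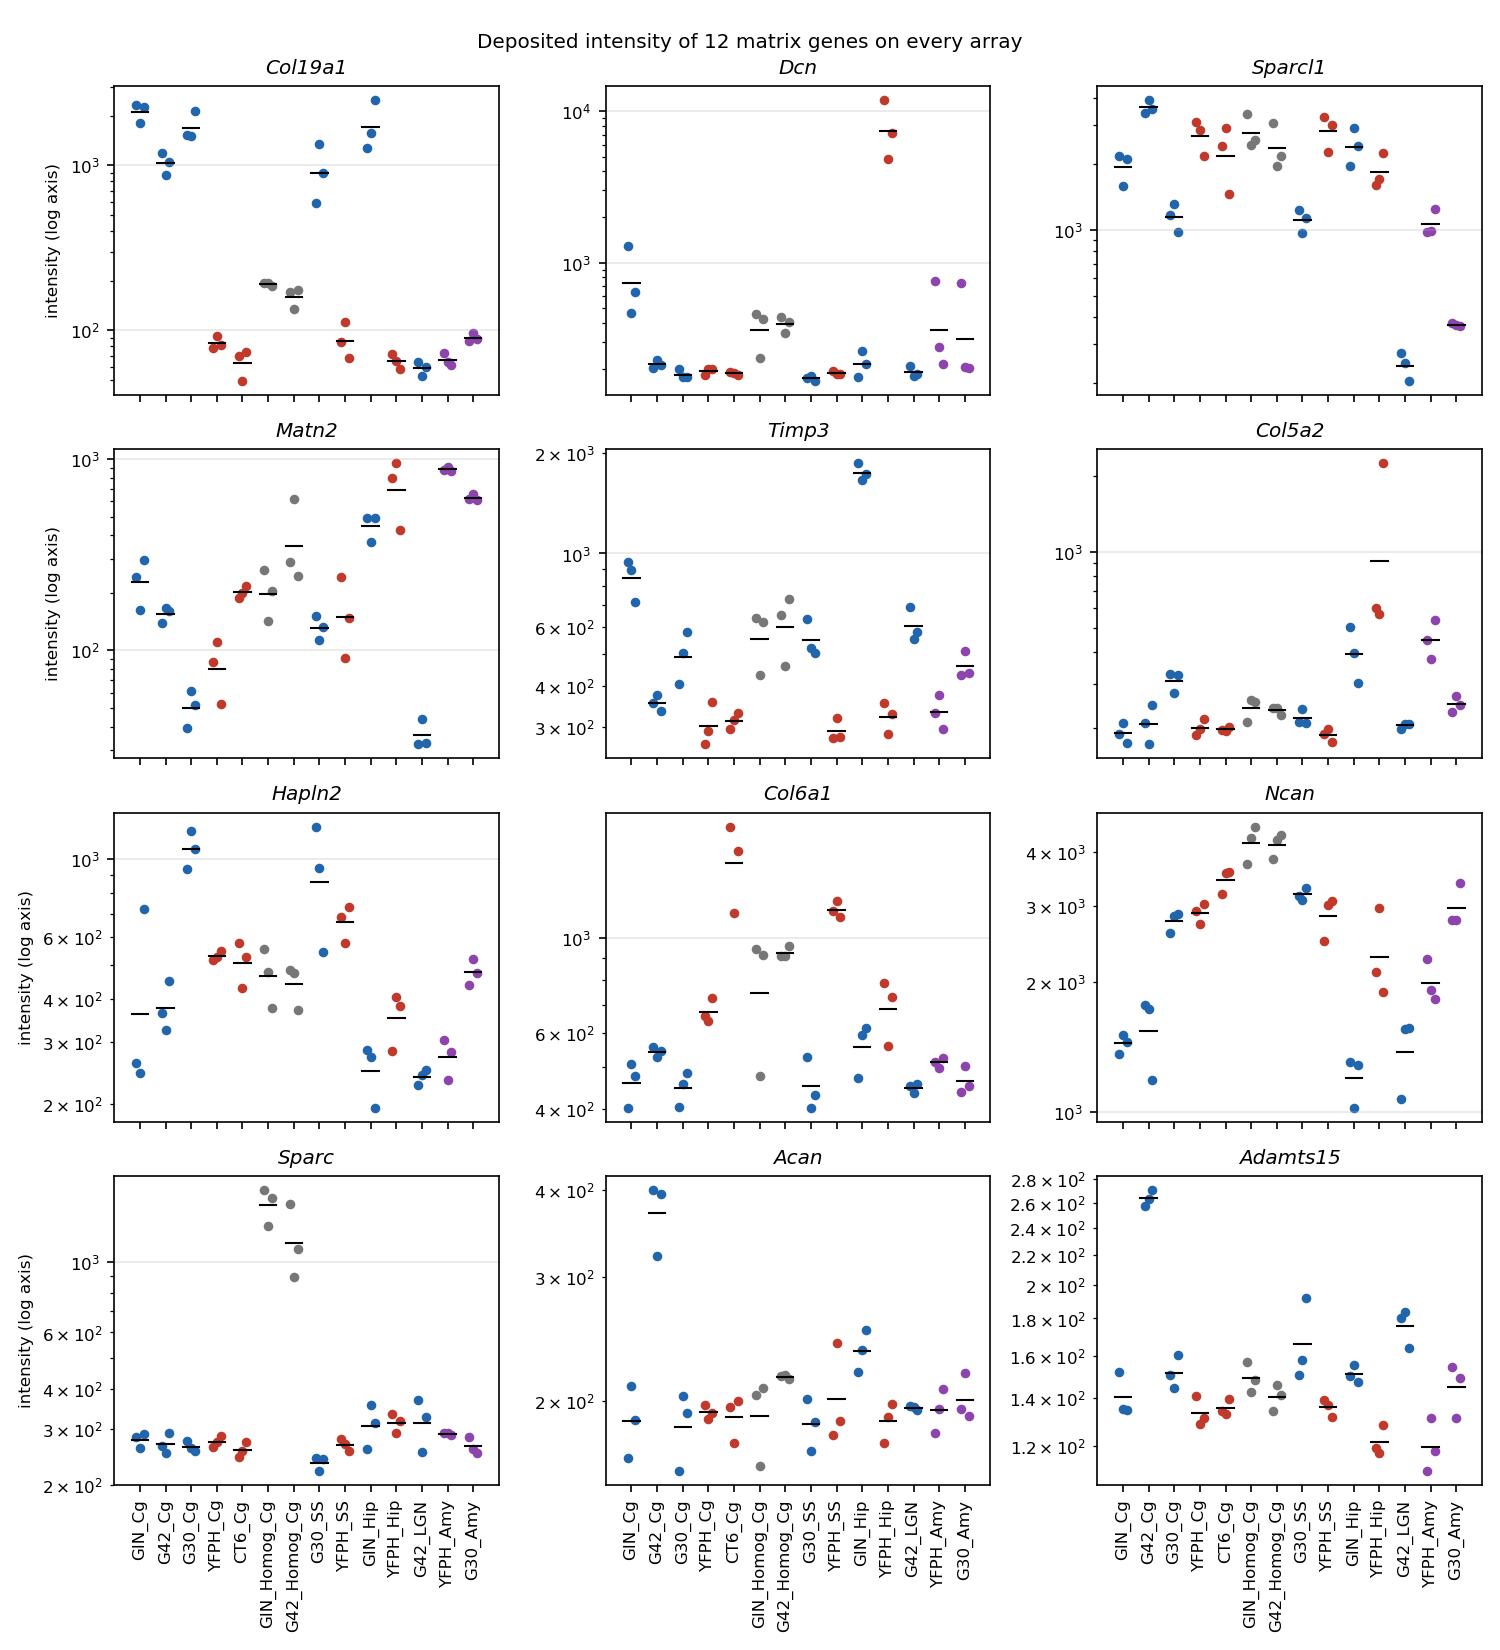
Deposited intensity (log axis) of 12 matrix genes on every array, by group (blue interneurons, red pyramidal neurons, grey unsorted, purple amygdala; bars are means of 3 arrays). Dcn stands apart in YFPH_Hip, Timp3 in GIN_Hip, Acan and Adamts15 in G42_Cg, Sparc in the unsorted groups and Col19a1 in 5 interneuron groups.

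G42 interneurons of the thalamus (G42_LGN) were compared with those of cingulate cortex. Sparcl1 was 274, 247 and 204 in G42_LGN and 3408, 3906 and 3571 in G42_Cg, a 14.2-fold decrease (-3.83 ± 0.20, adjusted p = 1.11e-16). Col19a1 was 64.0, 52.6 and 59.5 in G42_LGN, within the pyramidal range and 14.1-fold below G42_Cg (-3.82 ± 0.20, adjusted p = 1.21e-16). Acan was 197, 196 and 194, so the aggrecan level of G42_Cg was not found in G42_LGN, where Pvalb was low as well. The Gapdh 3′ to 5′ log2 signal was 2.80 to 3.02 in G42_LGN and 1.75 to 2.14 in G42_Cg, without overlap. With it as a covariate Sparcl1 (-3.45), Col19a1 (-3.81) and Acan (-0.91) were still called.

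In G42_LGN minus G42_Cg, 14 members were called (5 higher, 9 lower; 21.3% of all genes called, 11.8% higher and 9.51% lower). Matn2 (-1.72 ± 0.28, adjusted p = 1.62e-05), Acan (-0.87 ± 0.11, adjusted p = 8.66e-08), Adamts15 (-0.54 ± 0.08, adjusted p = 1.22e-06) and the synapse-promoting thrombospondin gene Thbs2 (-0.46 ± 0.13, adjusted p = 0.00885) were the other largest decreases. Col4a2 (1.07 ± 0.22, adjusted p = 0.000363), Timp3 (0.74 ± 0.15, adjusted p = 0.000406), Adamts5 (0.65 ± 0.11, adjusted p = 2.24e-05), Col1a2 (0.41 ± 0.09, adjusted p = 0.00115) and Col4a3 (0.24 ± 0.08, adjusted p = 0.0354) were higher. Matn2 in G42_LGN was 32.3, 43.6 and 32.8, near the lowest intensities of any member, and was not called with intensities floored at the 25th percentile, nor was Thbs2. Col4a3 was lost with the Gapdh covariate (0.20) and without any G42_LGN array or G42_Cg 2 or 3 (0.21 to 0.25), and Thbs2 without G42_Cg 1 or 2 (-0.39 and -0.38).

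Both amygdala groups were high in Matn2. It was 871, 911 and 864 in YFPH_Amy and 615, 656 and 610.3 in G30_Amy, against 87.1, 111 and 52.2 in YFPH_Cg and 39.2, 61.4 and 51.6 in G30_Cg. No cingulate sorted array reached these levels, and the differences were 3.22 ± 0.28 (adjusted p = 2.01e-10, 9.33-fold) and 3.28 ± 0.28 (adjusted p = 3.3e-11, 9.72-fold). Thbs3 was higher in both (0.79 ± 0.13, adjusted p = 3.25e-05; 0.56 ± 0.13, adjusted p = 0.000978), though scan year as a block lowered the G30 value to 0.38 and ended that call. Sparcl1 was lower in both, at 982, 992 and 1245 in YFPH_Amy (-1.32 ± 0.20, adjusted p = 2.05e-05) and 375, 369 and 365 in G30_Amy (-1.59 ± 0.20, adjusted p = 2.32e-07).

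YFPH_Amy differed from YFPH_Cg in 6 members (3 higher, 3 lower; 5.35% of all genes called, 2.95% higher and 2.4% lower). Col5a2 was 447, 374 and 539 there, above all YFPH_Cg arrays (1.10 ± 0.25, adjusted p = 0.00433). Hapln2 (-0.92 ± 0.25, adjusted p = 0.0217) and Ncan (-0.53 ± 0.15, adjusted p = 0.0272) were lower, calls lost without any YFPH_Cg array or YFPH_Amy 2 or 3 for Hapln2 (-0.82 to -0.94) and without YFPH_Cg 1 or 3 or YFPH_Amy 2 or 3 for Ncan (-0.47 to -0.53). As in hippocampus, the YFPH_Amy mice were older (P99, P106 and P91). Without YFPH_Cg 3, within the first scan year, Matn2 was 2.97, Col5a2 1.16, Thbs3 0.84 and Sparcl1 -1.47.

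G30_Amy differed from G30_Cg in 12 members (3 higher, 9 lower; 21% of all genes called, 12% higher and 9% lower). Col19a1 (-4.01 ± 0.20, adjusted p = 3.6e-17) was 86.1, 96.4 and 87.7 in G30_Amy, as in pyramidal groups, and Hapln2 (-1.14 ± 0.25, adjusted p = 0.000907), Hapln1 (-1.12 ± 0.14, adjusted p = 2.52e-07) and Col14a1 (-0.97 ± 0.13, adjusted p = 5.03e-07), which were high in G30_Cg, were lower. The direction for Hapln2 is that of its brightest probe set, since its other set was called higher in G30_Amy (0.66 ± 0.21, adjusted p = 0.0212). The basement membrane chain Col4a5 (-0.36 ± 0.11, adjusted p = 0.0171) was lower and the laminin chain Lamc1 (0.37 ± 0.10, adjusted p = 0.00538) higher. These values go with the change of marker class described above, and region and class cannot be told apart here. The Gapdh 3′ to 5′ log2 signal was 2.85 to 3.71 in G30_Amy and 2.41 to 2.91 in G30_Cg. Scan year differed as well: all 3 G30_Cg arrays were of the second year and 2 of 3 G30_Amy arrays of the third. Col4a5 was not called without G30_Cg 3 or G30_Amy 2 (-0.33 and -0.32).

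The amygdala interaction called 5 members, all more positive in YFPH (9.11% of all genes called, 4.4% higher and 4.71% lower): Col19a1 (3.73 ± 0.29, adjusted p = 8.9e-12), Col5a2 (1.40 ± 0.36, adjusted p = 0.00833) and Hapln1 (0.95 ± 0.20, adjusted p = 0.00143) had the largest terms. Somatosensory cortex had the fewest called members. YFPH_SS was higher than YFPH_Cg in Col6a1 alone of the members, at 1159, 1217 and 1117 (0.77 ± 0.17, adjusted p = 0.00848; 1.21% of all genes called, 0.67% higher and 0.541% lower), a call lost without YFPH_Cg 2 or YFPH_SS 2 (0.74 for each). G30_SS was lower than G30_Cg in Col19a1, at 589, 1351 and 896 (-0.91 ± 0.20, adjusted p = 0.0449; 0.194% of all genes called, 0.145% higher and 0.0484% lower), lost without any 1 array other than G30_SS 2 (-0.62 without G30_SS 1). limma called 0 members in the somatosensory interaction (0.436% of all genes called, 0.178% higher and 0.258% lower). An unadjusted p below 0.05 was found for 4 members there, and for 4.74% of all genes.

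**Figure D4:**
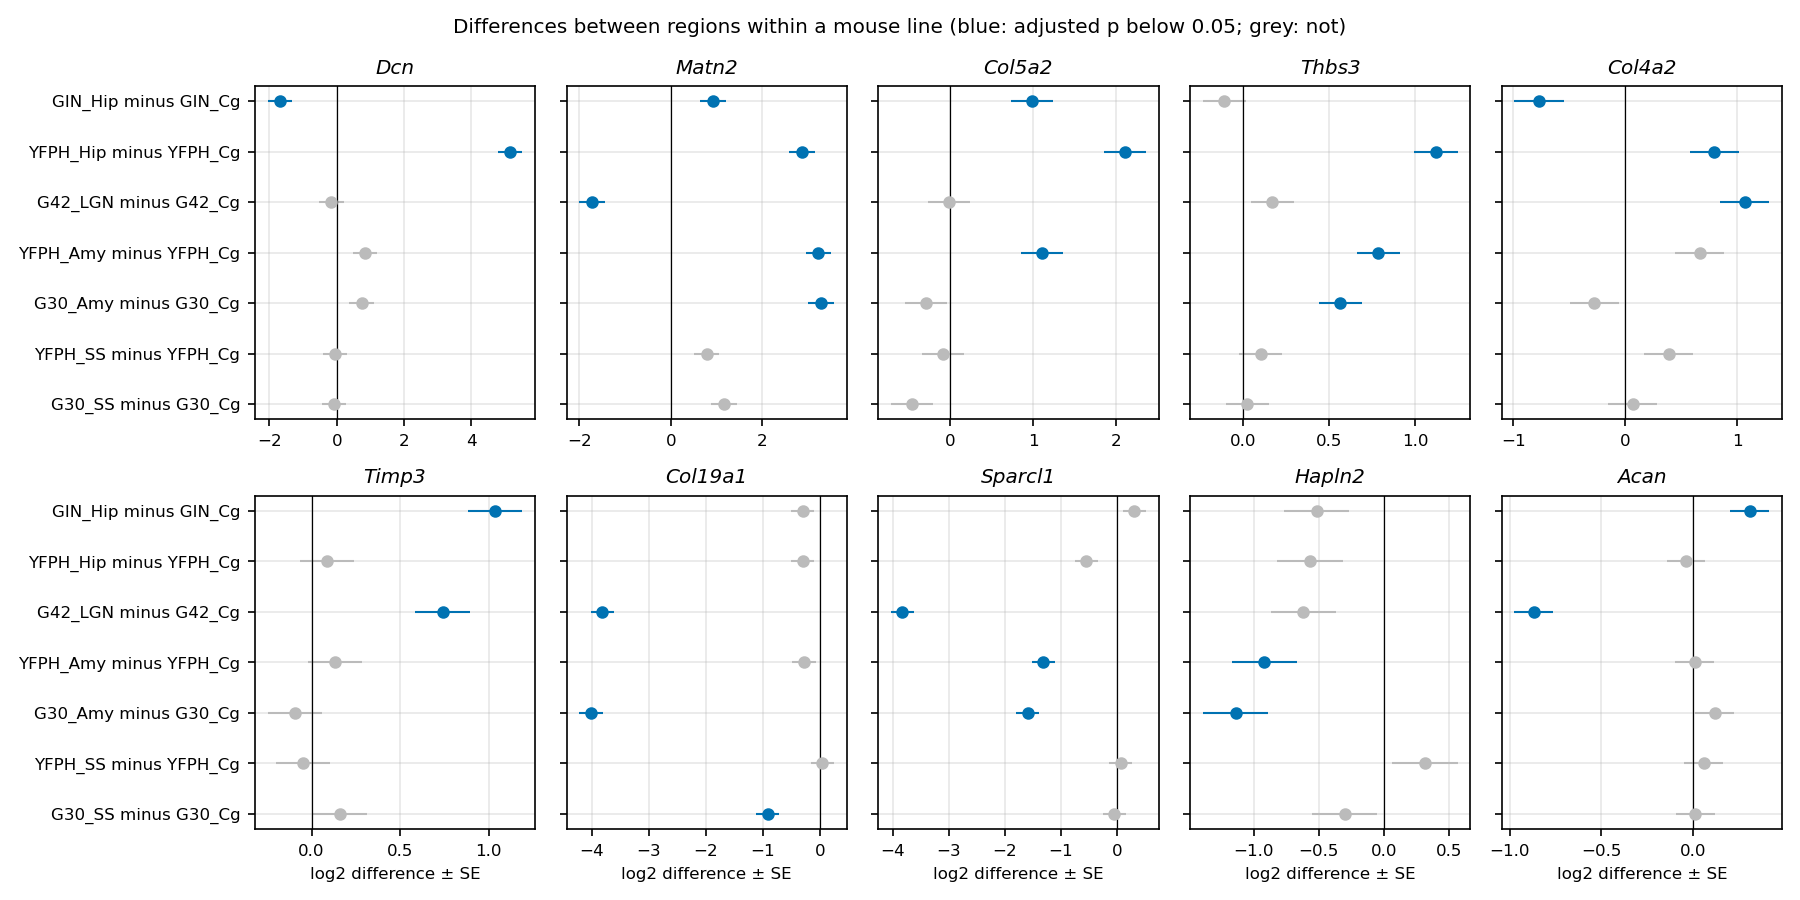
Log2 difference ± SE between regions within a mouse line for 10 matrix genes, blue where called and grey where not. Matn2 is positive in hippocampus and amygdala and negative in the thalamus, Dcn is positive in YFPH_Hip and negative in GIN_Hip, and Col19a1 and Sparcl1 are strongly negative in G42_LGN and G30_Amy.

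A member was called specific to a sorted group where it was higher there than in each of the other 11. This held for 4 members (1.72% of all genes were so called in some group). Dcn in YFPH_Hip was 9.98-fold above GIN_Cg, the next group (3.32 ± 0.36, limma, adjusted p = 2.05e-07). Timp3 in GIN_Hip was 2.05-fold above GIN_Cg (1.04 ± 0.15, adjusted p = 9.61e-05). Acan in G42_Cg was 1.54-fold above GIN_Hip (0.62 ± 0.11, adjusted p = 0.00111), and Adamts15 in G42_Cg 1.46-fold above G42_LGN (0.54 ± 0.08, adjusted p = 3.94e-05). Acan and Adamts15, a lectican and a protease that cuts lecticans, shared their highest group.

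Other members of the list stayed in a narrow range of intensity. Vcan (versican) read 208 to 312 on its brightest probe set over all 42 arrays, Tnc (tenascin C) 136 to 281, Timp1 222 to 457, Thbs1 142 to 336, Thbs4 122 to 218, Lum 119 to 265 and Bgn 326 to 559. The F test over the sorted groups called Tnc, Lum, Bgn and Thbs4 but not Vcan, Timp1 or Thbs1. Their called differences were small: Lum was higher in GIN_Cg than in G42_Cg (0.40 ± 0.11, adjusted p = 0.00634), Tnc lower in G30_Amy (-0.36 ± 0.12, adjusted p = 0.0286), Bgn lower in G30_Cg than in GIN_Cg and G42_Cg (-0.32 ± 0.08, adjusted p = 0.00301) and Vcan lower in G42_LGN (-0.30 ± 0.11, adjusted p = 0.0389). Tnc (-0.28 ± 0.08, adjusted p = 0.00657), Lum (-0.26 ± 0.07, adjusted p = 0.00558) and Bgn (-0.21 ± 0.06, adjusted p = 0.00536) were lower in pyramidal cells than in interneurons, and Thbs4 (-0.19 ± 0.06, adjusted p = 0.0194) lower in sorted than in unsorted cells. Single arrays ended some of these calls: Lum without GIN_Cg 2 (0.27), Tnc in G30_Amy without G30_Cg 1 or 3 or G30_Amy 2 (-0.28 to -0.33), Bgn in G30_Cg without G30_Cg 2 (-0.27) and Vcan without G42_Cg 1 or any G42_LGN array (-0.21 to -0.32). Lum in GIN_Cg was also not called with the Gapdh covariate (0.22). The Thbs4 call in sorted cells was lost without G42_Homog_Cg 3 (-0.14), with the Gapdh covariate (-0.20) and with quantile normalization (-0.11) or median centring (-0.13), and the Lum call there with quantile normalization (-0.14). Timp2 was bright everywhere, 3183 to 10562.

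Probe sets of 1 gene did not always move together. The F test over the sorted groups called the brightest set of Col19a1, Hapln2, Col1a2 and Col22a1 but not the other set (adjusted p = 0.0523, 0.121, 0.122 and 0.245). Bgn, Lamb1 and Timp2, with more sets, also had a set that the F test did not call (adjusted p = 0.317, 0.0718 and 0.0596). For Vcan the second-brightest set was higher in G30_Cg than in GIN_Cg and G42_Cg (1.25 ± 0.17, adjusted p = 1.02e-06) and lower in G30_Amy (-1.40 ± 0.19, adjusted p = 1.14e-06), while the brightest set was not called in either (-0.15 ± 0.09, adjusted p = 0.299; 0.18 ± 0.11, adjusted p = 0.254). For Col4a1 the dimmer set was higher in YFPH_Hip (1.16 ± 0.26, adjusted p = 0.00307), in G30_Cg (1.21 ± 0.22, adjusted p = 0.00018) and in G42_LGN (0.97 ± 0.26, adjusted p = 0.00585), as Col4a2 was, and the brightest set was not called in YFPH_Hip (-0.16 ± 0.24, adjusted p = 0.796). Depending on the comparison, 0 to 8 of the 39 members with several sets were called by a dimmer set alone, and 2 opposite calls occurred: Col5a3 in sorted against unsorted cells and Hapln2 in G30_Amy minus G30_Cg.

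**Figure D5:**
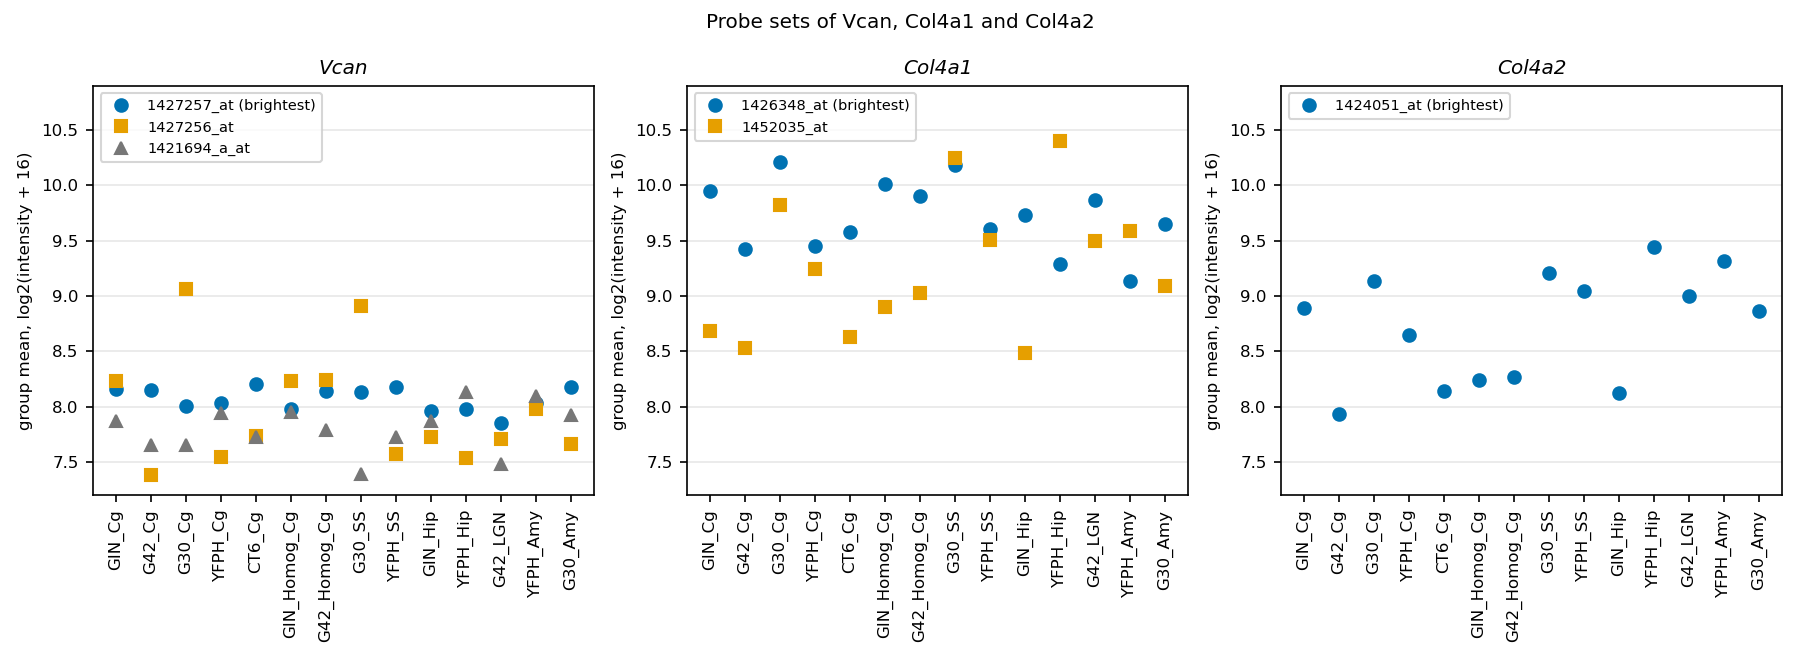
Group means, log2(intensity + 16), of each probe set of Vcan, Col4a1 and Col4a2 in the 14 groups. The second Vcan set (orange squares) stands high in G30_Cg and G30_SS, where the brightest Vcan set is flat. The dimmer Col4a1 set (orange squares) stands high in YFPH_Hip, where the brightest set does not, and in G30_SS, where the brightest set is high too.

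Of 59 other matrix genes that are not members (integrins, syndecans, glypicans, testicans, metalloproteinases and collagen-processing enzymes among them), 54 were measured. In sorted against unsorted cells 5 were higher and 17 lower (18.2% and 19.8% of all genes), with a median difference of -0.10. The integrin chain Itgav (-1.39 ± 0.16, adjusted p = 1.13e-08), its relative Itga6 (-1.15 ± 0.14, adjusted p = 2.31e-08) and Ptprz1, a receptor-type phosphatase and proteoglycan of glia (-1.13 ± 0.11, adjusted p = 2.33e-10), were lower, and the testican Spock3 (1.15 ± 0.16, adjusted p = 5.1e-07) higher. Between pyramidal cells and interneurons 9 were higher and 15 lower (12.2% and 13.5% of all genes): the membrane metalloproteinase Mmp17 was higher in pyramidal cells (1.70 ± 0.10, adjusted p = 9.94e-16) and Spock3 lower (-3.01 ± 0.18, adjusted p = 6.76e-16). In the hippocampus 2 were higher and 2 lower in GIN_Hip (7.63% and 7.33% of all genes), Mmp17 with the largest rise (1.92 ± 0.16, adjusted p = 4.4e-11), and 4 were higher and 4 lower in YFPH_Hip (3.72% and 4.33%), among them the proteoglycan Cspg5 (-1.49 ± 0.12, adjusted p = 4.96e-11). Itgav was lower in YFPH_Amy (-2.23 ± 0.27, adjusted p = 2.72e-07) and higher in G30_Amy (2.31 ± 0.27, adjusted p = 3.93e-08) than in the cingulate cells of the same line.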

How the data were processed

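The table deposited by the authors holds linear intensity values for 22690 probe sets on 42 Affymetrix arrays (1 to 22818; array medians 286 to 330.4). The way the authors summarised and scaled probe signals was not given in the sources used here. Intensities were turned into log2(intensity + 16). The 64 control sets were left out, 20380 sets with 1 gene symbol in the platform annotation were kept, and the brightest set by mean stood for each of 12393 genes; no filter on low values was applied. A model with 1 mean per group was fitted over all 42 arrays with limma 3.58.1 in R 4.3.3 (28 residual degrees of freedom, trended and robust variances, median prior degrees of freedom 5.93), with Benjamini-Hochberg adjustment over all genes in each comparison, and checked on simulated data. The number of arrays limits the precision; an exact permutation of 3 against 3 arrays cannot go below p = 0.1.

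Members were taken by symbol. In each comparison the text names the called members with the largest differences, up to 6 in each direction (3 for interactions), every group-specific member and a set list of reference members; where other members are named, they were chosen after their values were seen. The members and lists were chosen with earlier results of these data known. Alternatives tried were quantile normalization and median centring, filters at the 25th and 50th percentile, a floor, another pseudocount, the replicate number, scan day and scan year as blocks, the Gapdh 3′ to 5′ signal as a covariate, every probe set, the compared arrays only, and leaving out marked arrays or each array in turn.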

Additional observations from a re-analysis of the deposited data

Results flagged for a closer look

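Differences between regions, or between sorted and unsorted cells, were not the same in the mouse lines, by an interaction test in limma, for the following members. Between cingulate cortex and hippocampus 11 members differed between the YFPH and GIN lines, with interaction terms of 6.85 for Dcn, 1.94 for Matn2, 1.56 for Col4a2, -0.95 for Timp3, -0.86 for Sparcl1 and -0.63 for Adamts1 on the log2 scale. Between cingulate cortex and amygdala 5 members differed between the YFPH and G30 lines, with terms of 3.73 for Col19a1, 1.40 for Col5a2 and 0.95 for Hapln1. G30_Amy is of another marker class than G30_Cg, so region and class cannot be told apart in these terms. Between unsorted and sorted cingulate cells 9 members differed between the GIN and G42 lines, with terms of 1.82 for Dcn, 1.33 for Timp3, 1.29 for Matn2, -1.13 for Sparcl1, -0.92 for Adamts15 and -0.76 for Acan. No cause was tested.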

How the results depend on the processing

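Among repeated results of single members, 4883 kept direction and side of the threshold, 304 were no longer called, 21 became called and 3 reversed. The reversals came with intensities floored at the 25th percentile in sorted against unsorted cells: Hapln1 0.0609, Lum 0.0025 and Thbs4 0.0038. Counts of called members that moved by more than 1.5 times were these.
Median centring gave 8 in the amygdala interaction and 5 in the line interaction. Filters test fewer members, and the number left and the share of filtered genes called are not given here. A lower count after a filter therefore cannot be told from a smaller number tested. At the 25th percentile 16 were called in sorted against unsorted cells, 16 in pyramidal against interneurons and 37 by the F test. At the 50th percentile the counts were 8 in sorted against unsorted cells, 9 in GIN and 8 in G42 against their controls, 11 in pyramidal against interneurons, 9 in GIN_Cg minus G42_Cg, 8 for G30_Cg, 5 for CT6_Cg, 4 for GIN_Hip, 2 for YFPH_Hip, 6 for G42_LGN, 3 for YFPH_Amy, 3 for G30_Amy, 0 for G30_SS, 7, 3 and 5 in the hippocampus, amygdala and line interactions, 21 by the F test and 1 group-specific member.
The floor gave 17 in pyramidal against interneurons, 3 for G30_SS and 2 in the somatosensory interaction. The numbers in the labels did not pair the samples (same-numbered deviations correlated by -0.29 to 0.29, and in 0 of 11 comparisons was every pair over 0.1); the replicate block gave 0 for G30_SS and moved no other count that far. Scan day as a block gave 7 for GIN_Hip and 2 for G30_SS. The Gapdh covariate gave 11 for GIN against its control, 6 for CT6_Cg, 4 for GIN_Hip, 0 for G30_SS, 7 in the hippocampus and 5 in the line interaction. Testing every probe set gave 0 for G30_SS. The compared arrays alone gave 10 for GIN against its control, 4 for GIN_Hip, 4 for YFPH_Hip, 0 for G30_SS, 6 in the hippocampus and 8 in the amygdala interaction, and leaving out marked arrays 8 in the last. Counting only directions kept on every shared scan day left 9 in sorted against unsorted cells.
Leaving out single arrays gave 21 to 27 in sorted against unsorted cells, 12 to 16 in GIN and 14 to 18 in G42 against their controls, 21 to 30 in pyramidal against interneurons, 13 to 18 in GIN_Cg minus G42_Cg, 10 to 16 for G30_Cg (10 without G30_Cg 2), 7 to 13 for CT6_Cg, 6 to 14 for GIN_Hip, 5 to 8 for YFPH_Hip, 11 to 14 for G42_LGN, 4 to 7 for YFPH_Amy, 10 to 15 for G30_Amy, 0 to 1 for YFPH_SS, 0 to 2 for G30_SS, 8 to 14, 4 to 6, 0 to 2 and 5 to 9 in the hippocampus, amygdala, somatosensory and line interactions, 56 to 63 by the F test and 4 to 5 group-specific members. Causes were not tested.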
